A study of Mus musculus with 2 samples.

Results

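The genes described here are those of the MAP kinase cascade and the dual-specificity phosphatases. They were taken by name from the array files: every non-control probe for a gene named Map2k, Map3k or Map4k with a number, Mapk with any ending, or Dusp with a number, other than Dusp1 and Dusp6. These names covered 141 probes of 74 genes. A probe was kept if the scanner software marked it as well above background in the same channel on both arrays, which left 96 probes of 57 genes, out of 24434 probes of 16588 genes on the same terms. Where several probes of a gene were kept, the brightest one gives its value unless another is named. The other 17 genes are named below and have no value here.

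MAP kinases are activated in relays. A MAP3K phosphorylates a MAP2K, which phosphorylates a MAP kinase on a threonine and a tyrosine of its activation loop, and some MAP4Ks act on MAP3Ks. The main relays end in ERK, JNK, p38 and ERK5, and dual-specificity phosphatases remove the phosphates of the loop. In red cell precursors ERK is known to act below the receptors for stem cell factor and erythropoietin. Transcript levels, which are what was measured, do not give the phosphorylation of any of these kinases.

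One group was G1E-ER-GATA-1 cells given siRNA against ETO2, a corepressor encoded by Cbfa2t3, and kept in β-estradiol for 24 h. The other was the same line with control siRNA and the same β-estradiol. G1E is a mouse erythroid line, labelled GATA-1-null and derived from embryonic stem cells, in which β-estradiol activates an introduced fusion of GATA-1 with an oestrogen receptor domain. Both groups carry that fusion and both were induced. On each of 2 arrays the ETO2 siRNA RNA carried Cy3 (green) and the control RNA Cy5 (red), with no dye swap, so that a dye effect of a probe cannot be told apart from the siRNA.

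The median spot read 82.8 and 77.5 scanner units with ETO2 siRNA RNA, against 105 and 105 units with control RNA, over local backgrounds of 44 to 47. Cbfa2t3 stood at 74.6% of the control level, with a log2 ratio of -0.42 ± 0.05 (SD, n = 2 arrays; limma adjusted p = 9.00e-05). Of 11 erythroid markers on the array, 11 were measured and all 11 were higher after ETO2 siRNA. Their summed signal was 319181 and 348768 units in the ETO2 siRNA channel, against 166135 and 162117 units in the control channel, with Hba-a1 and Hbb-bt saturated. Of 10 embryonic stem cell markers, Pou5f1, Nanog, Sox2, Zfp42 and Dppa3 were not well above background. The other 5 were measured, with Utf1 and Sall4 lower and Esrrb, Tdgf1 and Dppa5a not past the threshold. Of 8 megakaryocyte markers 7 were measured, 2 higher and 1 lower. Of 8 mast cell markers on the array, 5 were measured, with 2 higher, and of 9 granulocyte and macrophage markers 5, with 1 lower. Of 6 lymphocyte markers 5 were measured, 1 higher and 2 lower. Whether a shift in maturation or in cell types has a part in the ratios below was not tested. In RNA from many cells, fewer cells of a type and less RNA per cell cannot be told apart.

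Several transcripts are read by more than 1 probe, and the start of 3 such sets of probes is printed here because the ratios depend on which probe is read. Each line gives bases 1 to 30 of a 60-base probe, 5′ to 3′, as designed for the array, in lower case throughout, with the brightest probe of the gene first. No run of more than 6 bases was shared by any pair of probes of the same gene among these.
Map4k5, NM_024275: acaggggctaagagtagcaaacgatagacg
Map4k5, NM_201519: tcaaatgaactgtacattaggatagaattc
Map4k5, AK045031: aaagaaagacttctgttacctcttctaatt
Mapk9, brightest: aaagaagcaagaatggggtaaaagaccagc
Mapk9, NM_207692: caaacgcacgcaaagagagcctaccgtgaa
Mapk9, last: taaaccgggtaactaatgattatctggaat
Map3k10, brightest: agtccatcaacatcctaatcctggaggcca
Map3k10, second: atactcagggacagaatattgtgggggatc

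More genes of the cascade fell than rose. Of the 57 measured genes, 7 were higher (12.3%) and 19 lower (33.3%) after ETO2 siRNA at an adjusted p under 0.05 (limma, 2 arrays), and 31 did not pass. Among all 16588 genes, 18.4% were higher and 22.3% lower by the same rule. In either direction, 45.6% of the measured cascade genes passed, against 40.7% of all genes. Map4k5, a kinase at the top of a JNK relay, had the largest rise, at 1.88-fold. The NF-κB-inducing kinase Map3k14, the JNK and p38 phosphatase Dusp16 and the p38-activated kinase Mapkapk3 had the largest falls, at 1.61-fold, 1.54-fold and 1.52-fold. The other 22 genes past the threshold changed by under 1.5-fold. A change of at least 1.5-fold was seen for 4 of the 57 genes (7.02%), against 577 of all 16588 genes (3.48%). Of the 7 rises, those of Map3k4, Map2k3, Map2k1, Mapkapk2 and Mapkap1 turned below 0 when arrays were only centred on their median, which put the median of all genes at -0.31. The falls include Map3k10 and Mapk9, whose probes were called in both directions.

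The median log2 ratio was -0.02 over the 57 genes and -0.02 over all genes. It was 0.01 on array 1 alone and -0.07 on array 2 alone. The ratio had the same sign on both arrays for 44 of the 57, and for 13109 of all 16588 genes. On the signals processed by the scanner software, 2 of the 7 rises and 9 of the 19 falls were past the threshold. That scaling called fewer genes in all (1194 higher and 1277 lower, against 3054 and 3699).

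**Figure D1:**
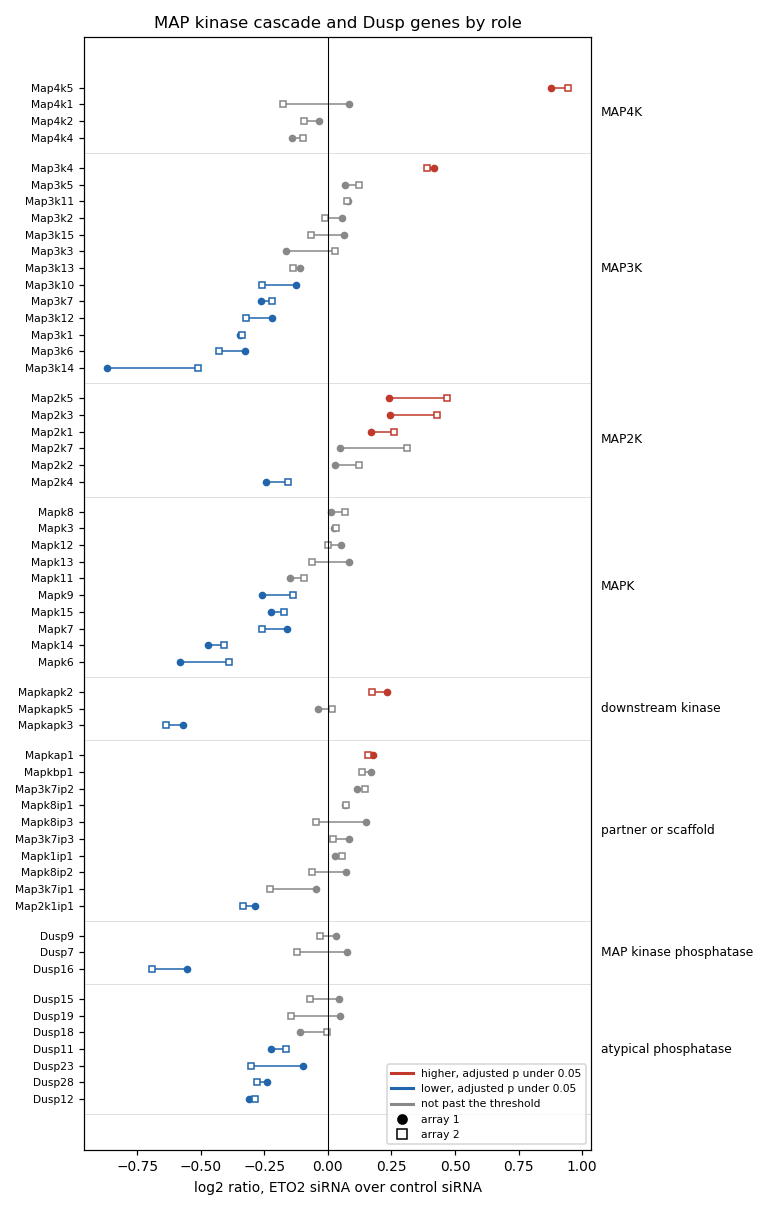
Log2 ratio of ETO2 siRNA over control siRNA for the measured genes (1 is not drawn), by role, with a filled circle for array 1, an open square for array 2 and a line between them. Red genes were higher and blue genes lower at an adjusted p under 0.05, and grey genes did not pass. Map4k5 stands apart on the right, at 0.88 on array 1 and 0.94 on array 2, and the means of the 10 phosphatases lie between -0.62 and 0.00027.

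At the top of the cascade, 1 of 4 measured MAP4Ks was called (25%, against 40.7% of all genes). Map4k5, known as a germinal centre kinase-related kinase, had normalized signals of 7243 and 7763 units in the ETO2 siRNA channel, against 3945 and 4034 units in the control channel. The 2 groups did not overlap. Its log2 ratio was 0.91 ± 0.05 (SD, n = 2; limma adjusted p = 5.12e-08). Its other kept probes, the NM_201519 and AK045031 sequences above, were also higher when single probes were tested, at log2 ratios of 0.50 ± 0.03 and 0.19 ± 0.07, so that the direction was shared and the size was not. The dimmest of these had 83.7 and 88.1 units in the ETO2 siRNA channel, against 76.1 and 74.4 units in the control channel, and was well above background in control on 1 array. Map4k1 (HPK1), a kinase of blood cells, stood at -0.05, Map4k2 at -0.07 and Map4k4 at -0.12, and none of them passed.

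Among MAP3Ks more calls were falls than rises. Of 13 measured genes, 6 were lower on their brightest probe, Map3k10 among them, 1 was higher and 6 did not pass. That is 53.8% called, against 40.7% of all genes, and the median log2 ratio was -0.12. Map3k14, the kinase of the non-canonical NF-κB pathway, had 196 and 211 units in the ETO2 siRNA channel, against 358 and 301 units in the control channel. Its log2 ratio of -0.69 ± 0.25 (adjusted p = 7.40e-06) had the largest spread between arrays of all members, with -0.87 on array 1 and -0.51 on array 2. The groups still did not overlap.

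The stress kinase Map3k6 (ASK2) had 8168 and 8320 units after ETO2 siRNA, against 10236 and 11185 units in control, a log2 ratio of -0.38 ± 0.07 that did not pass on the processed signals (-0.18, adjusted p = 0.184). A second bright Map3k6 probe read -0.15 and did not pass, and with the probes averaged the gene stood at -0.26, which passed (adjusted p = 0.00298). Map3k1 (MEKK1), which acts on JNK and ERK relays, had 1318 and 1290 units after ETO2 siRNA, against 1675 and 1632 units in control, a log2 ratio of -0.34 ± 0.0047. For both, each ETO2 siRNA value lay below each control value. Map3k12 (DLK), best known from neurons, was dim, at 118 and 117 units after ETO2 siRNA, against 138 and 146 units in control, and its log2 ratio was -0.27 ± 0.07. A second Map3k12 probe read -0.09 and did not pass, and with the probes averaged the gene stood at -0.18, which passed (adjusted p = 0.0222). Map3k7 (TAK1), which serves cytokine and Toll-like receptors, fell by 0.24 on the log2 scale (SD 0.03), a call lost on the processed signals (-0.14, adjusted p = 0.268).

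Map3k4 (MEKK4), a JNK and p38 activator that binds Gadd45 proteins, was the MAP3K that rose. It had 8050 and 8749 units in the ETO2 siRNA channel, against 6028 and 6681 units in the control channel, with no overlap and a log2 ratio of 0.40 ± 0.02 (adjusted p = 1.28e-04), which was -0.14 under median centring, or 0.17 above the median of all genes. On the processed signals it narrowly missed the threshold (0.30, adjusted p = 0.0590). A second, dimmer probe of Map3k4 read -0.16 and did not pass, and with the probes averaged the gene stood at 0.12 and no longer passed (adjusted p = 0.157). Map3k10 (MLK2) was called lower at -0.19 ± 0.09 by its brightest probe and higher at 0.36 ± 0.10 by the second one shown above, so no direction is given for it. Among the rest, the MAP3Ks below the threshold were Map3k5 (ASK1), Map3k11 (MLK3), Map3k2, Map3k15, Map3k3 and Map3k13, between -0.12 and 0.10. A dimmer probe of Map3k3 did pass, at -0.30.

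**Figure D2:**
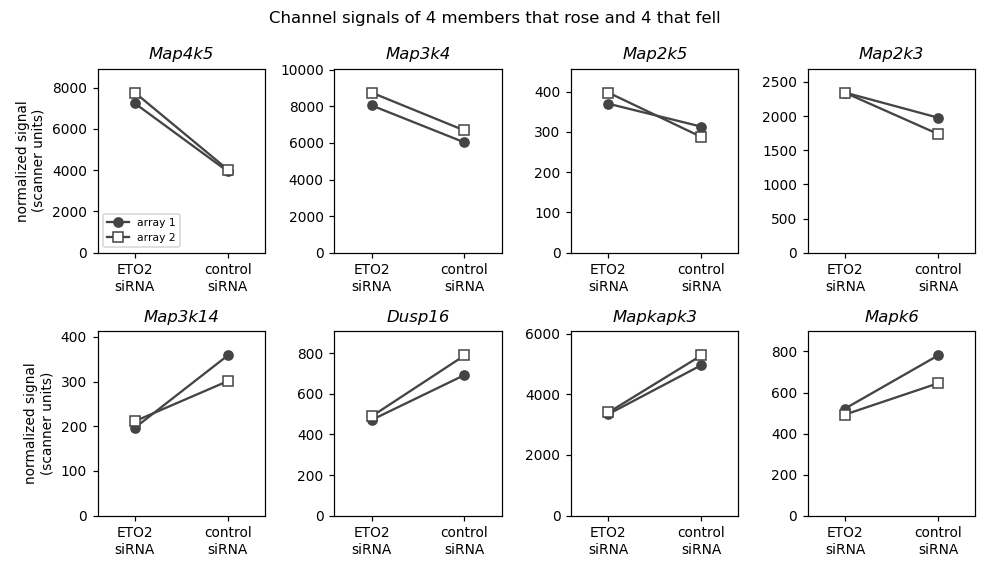
Normalized signal in scanner units, from 0, in the ETO2 siRNA channel (left) and the control siRNA channel (right) of each array, for 4 genes that rose (upper row) and 4 that fell (lower row). Lines join the channels of 1 array. For Map4k5 the ETO2 siRNA values are 7243 and 7763 units and the control values 3945 and 4034 units, and in the lower row every control value is above the ETO2 siRNA value of its array.

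More MAP2Ks rose than fell. Of 6 measured, 3 were higher and 1 lower (66.7% called, against 40.7% of all genes), and the median log2 ratio of the 6 was 0.20. Map2k3 alone was still called higher on the processed signals, and none was under median centring. Map2k5, the activator of ERK5, had 370 and 398 units after ETO2 siRNA, against 313 and 288 units in control, a log2 ratio of 0.35 ± 0.16 (adjusted p = 8.27e-04). Its second probe read 0.31. On the processed signals it stood at 0.42 and just missed the threshold (adjusted p = 0.0501). Under median centring it stood 0.36 above the median of all genes.

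Map2k3, an activator of p38, had 2343 and 2341 units after ETO2 siRNA, against 1977 and 1738 units in control, a log2 ratio of 0.34 ± 0.13. Under median centring it read -0.13, which is 0.18 above the median of all genes. Map2k1 (MEK1), which activates ERK, had 5018 and 6313 units after ETO2 siRNA, against 4463 and 5276 units in control. Its channels overlapped across arrays but not within one, and its log2 ratio of 0.21 ± 0.06 turned to -0.31 under median centring, equal to the median of all genes there. Map2k2 (MEK2, 0.08) and Map2k7, an activator of JNK (0.18), did not pass. Map2k4, which acts on JNK and p38, fell by 0.20 on the log2 scale (SD 0.06), a call lost on the processed signals, where it stood at -0.11 (adjusted p = 0.387).

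Of the 11 measured MAP kinases, 5 were lower on their brightest probe (45.5%, against 22.3% of all genes). Mapk9 was among the 5, and the other 6 did not pass. None of the 11 was higher by limma, against 18.4% of all genes. At an unadjusted p under 0.05 the same 5 of 11 passed, against 8033 of all 16588 genes. Mapk6 (ERK3), an atypical MAP kinase, had 522 and 493 units after ETO2 siRNA, against 780 and 645 units in control, a log2 ratio of -0.48 ± 0.14 (adjusted p = 4.90e-05). Of its other probes, one read -0.31 and passed and one read 0.0030 and did not. Mapk14 (p38α), the main p38 kinase of most cells, had 5308 and 5134 units after ETO2 siRNA, against 7363 and 6806 units in control, a log2 ratio of -0.44 ± 0.05 (adjusted p = 6.42e-05). For both genes the groups were separate.

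Smaller falls were seen for Mapk7 (ERK5, -0.21 ± 0.07), which was not called on the processed signals (-0.13, adjusted p = 0.314), and Mapk15 (-0.20 ± 0.04), a dim probe that stood 0.09 above the median of all genes under median centring. A second Mapk15 probe of like signal read 0.05 and did not pass, and with both averaged the gene stood at -0.08 and lost the call (adjusted p = 0.300). Mapk7 also lost it with averaged probes (-0.13, adjusted p = 0.0974) and with offset 0 (-0.20, adjusted p = 0.0777). Mapk9 (JNK2) read -0.20 ± 0.09 and -0.22 ± 0.09 on 2 probes and 0.28 ± 0.03 on the last one shown above. All 3 passed the test of single probes, so its direction depends on the probe.

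Mapk3 (ERK1) did not pass, at 0.03 ± 0.0053, and had 1361 and 1437 units after ETO2 siRNA, against 1336 and 1404 units in control. These values overlap. Mapk8 (JNK1) stood at 0.04 on its brightest probe, with a dim probe at 0.29 that passed and others at 0.04 and -0.16 that did not. Mapk12 (p38γ) at 0.03, Mapk13 (p38δ) at 0.01 and Mapk11 (p38β) at -0.12 did not pass, and Mapk11 was not well above background after ETO2 siRNA on either array (adjusted p = 0.139). It was called lower with offset 0 (-0.33, adjusted p = 0.0149) and with an intensity trend in the variance model (adjusted p = 0.0491).

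**Figure D3:**
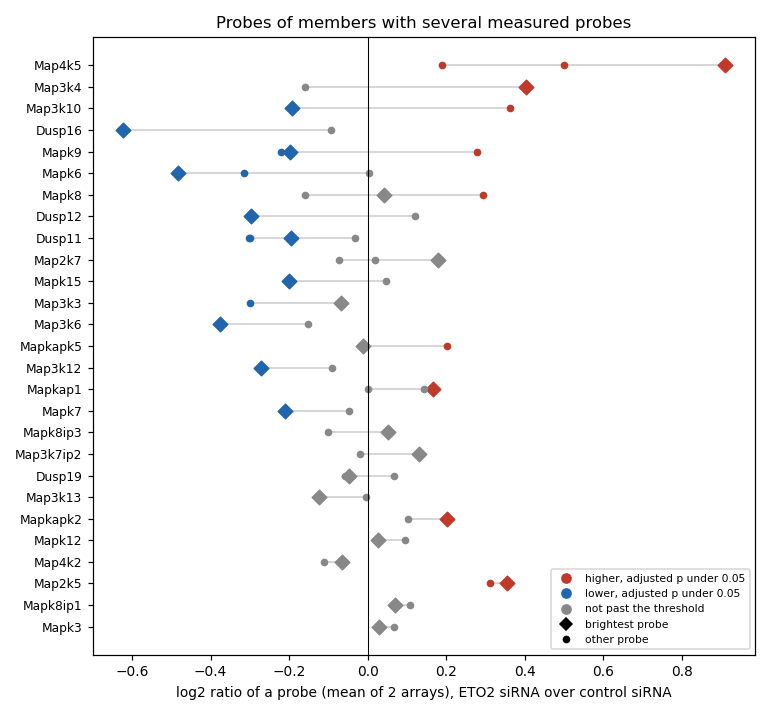
Log2 ratio of each kept probe (mean of 2 arrays) for genes with several kept probes (1 is not drawn), widest range at the top, with a diamond for the brightest probe and small circles for the others. Colours give the call in the test of single probes. Map3k10 and Mapk9 hold probes called in both directions, and several other genes have probes on both sides of 0.

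The kinases that MAP kinases switch on went different ways. Mapkapk3 (MK3), a p38 substrate, had 3344 and 3400 units after ETO2 siRNA, against 4958 and 5278 units in control, with no overlap and a log2 ratio of -0.60 ± 0.05 (adjusted p = 3.48e-06). Its close relative Mapkapk2 (MK2), also a p38 substrate, had 815 and 808 units after ETO2 siRNA, against 693 and 717 units in control, a log2 ratio of 0.20 ± 0.04. That rise did not pass on the processed signals (0.10, adjusted p = 0.402) and read -0.18 under median centring, or 0.13 above the median of all genes. A second Mapkapk2 probe read 0.10 and did not pass, and with the probes averaged the call was lost (0.15, adjusted p = 0.0548). Mapkapk5 (MK5) stood at -0.01 and a dimmer probe of it at 0.20, which passed.

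Set out by relay, Mapk14 and Mapkapk3 of the p38 branch fell while Map2k3 and Mapkapk2 of the same branch rose. The rise of Mapkapk2 was not called with its probes averaged, and Mapk11, Mapk12 and Mapk13 of that branch did not pass. Map2k4 and Dusp16, which act on JNK and p38, fell, and the fall of Map2k4 was not called on the processed signals. Of the JNK kinases, Mapk8 did not pass on its brightest probe and Mapk9 depended on the probe. Under median centring Map2k3 and Mapkapk2 read below 0 but stood 0.18 and 0.13 above the median of all genes. In the ERK5 branch Map2k5 rose and Mapk7 fell, and neither was called on the processed signals. Map2k5 was not called under median centring either (0.05, adjusted p = 0.619). In the ERK branch Map2k1 rose, but lay at the median of all genes under median centring. The rise of Map2k1 was not called on the processed signals (0.13, adjusted p = 0.293) or with offset 0 (0.23, adjusted p = 0.0528). Map2k2 (0.08) and Mapk3 (0.03) of that branch did not pass. These are separate tests of single genes.

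Most partner and scaffold genes did not pass. Of 10, 1 was higher and 1 lower (20% called, against 40.7% of all genes). Map2k1ip1 (now Lamtor3), a scaffold for MEK1 and ERK1 and a subunit of the lysosomal Ragulator, had 37941 and 35690 units after ETO2 siRNA, against 46230 and 44998 units in control, a log2 ratio of -0.31 ± 0.03. Its control channel was saturated on 1 array, and the value there is a lower limit of the control signal. On the processed signals the fall was not called (-0.24, adjusted p = 0.0995). Mapkap1 (SIN1), a subunit of the mTOR complex that phosphorylates AKT, had 2660 and 2996 units after ETO2 siRNA, against 2353 and 2687 units in control, a log2 ratio of 0.17 ± 0.01. The groups overlapped across arrays but not within one. It did not pass on the processed signals (0.03) and lay at the median of all genes under median centring (-0.31). The other probes of Mapkap1 read 0.14 and -0.00017, and neither passed. With the probes averaged it stood at 0.10 and lost the call (adjusted p = 0.160). The TAK1-binding proteins Map3k7ip1, Map3k7ip2 and Map3k7ip3 (Tab1, Tab2, Tab3) stood at -0.14, 0.13 and 0.05, and the JNK scaffolds Mapk8ip1, Mapk8ip2 and Mapk8ip3 at 0.07, 0.0042 and 0.05. Mapkbp1 (0.15) and Mapk1ip1 (0.04) did not pass either.

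Of 21 Dusp genes on the array other than Dusp1 and Dusp6, 10 were measured, and 5 of these were lower (50%, against 22.3% of all genes). The median log2 ratio of the 10 was -0.13. None of the 10 was higher by limma, against 18.4% of all genes. At an unadjusted p under 0.05 the same 5 of 10 passed, against 8033 of all 16588 genes. Among the MAP kinase phosphatases proper, Dusp16 (MKP7), which acts on JNK and p38, had 471 and 488 units after ETO2 siRNA, against 692 and 788 units in control. Every ETO2 siRNA value lay below every control value, and the log2 ratio was -0.62 ± 0.10 (adjusted p = 3.32e-06). A dim second probe read -0.09 and did not pass. With both averaged the log2 ratio was -0.36, which still passed (adjusted p = 4.77e-04). Dusp7 at -0.02 and Dusp9 at 0.00027 did not pass. Dusp2, Dusp4, Dusp8 and Dusp10 were not measured.

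Of 7 measured atypical phosphatases 4 were lower (57.1%, against 22.3% of all genes), by at most 1.23-fold each. Dusp12, a phosphatase with a zinc-binding domain, had 4681 and 3938 units after ETO2 siRNA, against 5802 and 4804 units in control, a log2 ratio of -0.30 ± 0.02. The groups did not overlap, but a dim second probe read 0.12 without passing. With the probes averaged it stood at -0.09 and no longer passed (adjusted p = 0.231), nor did it on the processed signals (-0.28, adjusted p = 0.0733). Dusp28 fell by 0.26, Dusp23 by 0.20 and the RNA phosphatase Dusp11 by 0.19 on the log2 scale. Other Dusp11 probes read -0.30 and -0.30, which passed, and -0.03, which did not. On the processed signals Dusp23 passed (adjusted p = 0.0468), and Dusp28 (-0.09) and Dusp11 (-0.20) did not. With offset 0 Dusp28 passed (adjusted p = 0.0346), and Dusp23 (adjusted p = 0.0603) and Dusp11 (adjusted p = 0.0735) did not. Dusp15 (-0.01), Dusp18 (-0.06) and Dusp19 (-0.05) did not pass.

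**Figure D4:**
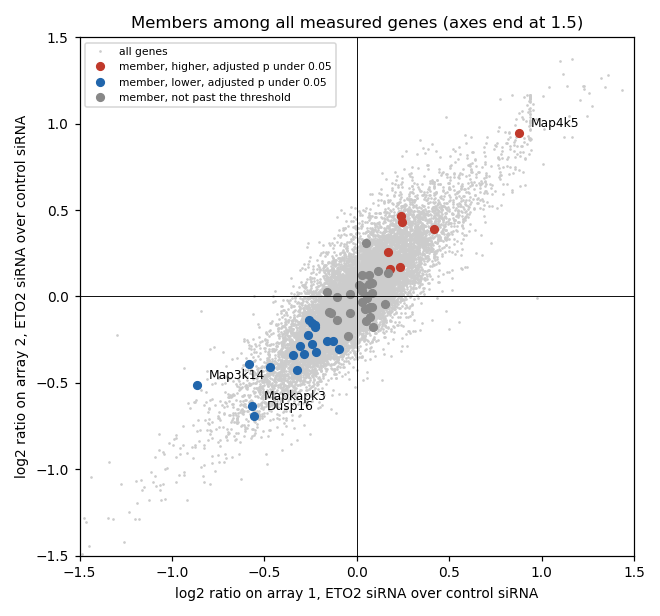
Log2 ratio of ETO2 siRNA over control siRNA on array 1 (horizontal) and array 2 (vertical) for all genes as small grey dots and for the members (1 is not drawn) as large dots, coloured by call. The axes end at 1.5, so that the few genes beyond are not drawn. Members spread along the same diagonal as the other genes. The 4 named members changed by at least 1.5-fold (7.02% of the 57, against 3.48% of all genes).

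The 17 genes not measured were Map2k6, Map3k8, Map3k9, Map4k3, Mapk4, Mapk10 and 11 Dusp genes, Dusp3, Dusp13, Dusp14, Dusp21, Dusp22, Dusp26 and Dusp27 among them. The dimmest kept probe, of Map3k15, had 79.6 and 77.0 units after ETO2 siRNA, against 76.1 and 80.7 units in control. The brightest probe left out, of Map4k3, had 87.3 and 67.5 units after ETO2 siRNA, against 87.8 and 71.2 units in control. The border thus lies where probes just in and just out have like signals.

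Other genes of the pathway were taken from a list of Ras, Raf, adaptor, restraint, downstream kinase, phosphatase and transcription factor genes that are not members. The list was drawn up with earlier results of these data known, and it held more falls than rises. Of 64 listed genes 55 were measured, of which 7 were higher (12.7%) and 23 lower (41.8%), with a median of -0.11, against 18.4% higher and 22.3% lower among all genes. On the processed signals these counts were 3 and 9, where 1194 of all 16588 genes were called higher and 1277 lower. Under median centring they were 1 and 47, where 464 of all 16588 genes were called higher and 10810 lower. The largest falls were in the Ras-restraining adaptor Dok2 (-1.01 ± 0.02), the adaptor Grb2 that links receptors to Sos (-0.74 ± 0.15) and the transcription factor Jund (-0.60 ± 0.28). The largest rises were in Ppm1b, a phosphatase of the TAK1 and stress kinase relays (0.89 ± 0.04), Gadd45a, a partner of Map3k4 (0.52 ± 0.0028), and Braf, a MAP3K of the ERK relay (0.44 ± 0.22).

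By subgroup, 8 of 16 Ras, Raf and adaptor genes fell and 2 rose, with Dok1 and the Ras-restraining Dok2 counted there, both lower. Of 8 other genes that restrain Ras and Raf, 4 fell and 1 rose. Of 10 transcription factors 4 fell and none rose by limma (5, all falls, at an unadjusted p under 0.05). Among kinases downstream of ERK and p38, 3 of 6 fell and 1 rose. Among other scaffolds and activators 2 of 8 fell and 2 rose, and among other phosphatases of MAP kinases 2 of 7 fell and 1 rose. Among all genes 18.4% were higher and 22.3% lower, and 8033 of 16588 passed at an unadjusted p under 0.05. The subgroups were not tested against each other.

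The 250 bases before the annotated start were read for the letters that GATA factors are known to bind, which are AGATAA or AGATAG and also, with another base in first place, TGATAA or TGATAG. Both strands were read. A window was found for 44 of the 57 genes, and 9 of them (20.5%) had a match, against 29.7% of 27025 genes. Of the genes called lower 5 of 17 had one (29.4%), of those called higher 2 of 7 (28.6%), and of those not called 2 of 20 (10%). No matches overlapped each other. The windows of Mapkapk3 and Mapk14, a kinase and the p38 kinase that activates it, which both fell, are shown with the match in capitals, from RefSeq on GRCm38.p6, 5′ to 3′ along the gene. They lie at chr9:107289878-107290127 on the minus strand and chr17:28692318-28692567 on the plus strand, and each is 1 of 2 annotated starts of its gene. The match begins 139 and 89 bases before the start. A match is only a run of letters, and no binding was measured here.
Mapkapk3: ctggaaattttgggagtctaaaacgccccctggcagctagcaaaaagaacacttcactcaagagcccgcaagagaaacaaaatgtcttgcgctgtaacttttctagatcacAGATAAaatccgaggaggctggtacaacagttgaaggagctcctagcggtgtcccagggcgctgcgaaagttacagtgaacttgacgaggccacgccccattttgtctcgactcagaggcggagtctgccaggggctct
Mapk14: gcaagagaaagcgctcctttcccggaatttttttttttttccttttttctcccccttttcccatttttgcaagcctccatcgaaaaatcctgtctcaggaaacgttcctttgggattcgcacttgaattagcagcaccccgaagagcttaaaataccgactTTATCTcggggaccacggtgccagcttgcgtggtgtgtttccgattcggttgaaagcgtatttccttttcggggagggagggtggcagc

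Of the 26 calls, 8 were past the threshold with the same sign under all 9 alternatives that test genes: the rise of Map4k5 and the falls of Map3k14, Dusp16, Mapkapk3, Mapk6, Mapk14, Map3k1 and Map3k12. The other 18 were lost or turned in at least 1 alternative. The 9 alternatives are not separate checks. Median centring called 464 of all 16588 genes higher and 10810 lower, so falls pass there more readily than rises. Relative to the median of all genes there, Map3k12 stood at only -0.09. The deposited ratios nearly repeat the processed signals.

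**Figure D5:**
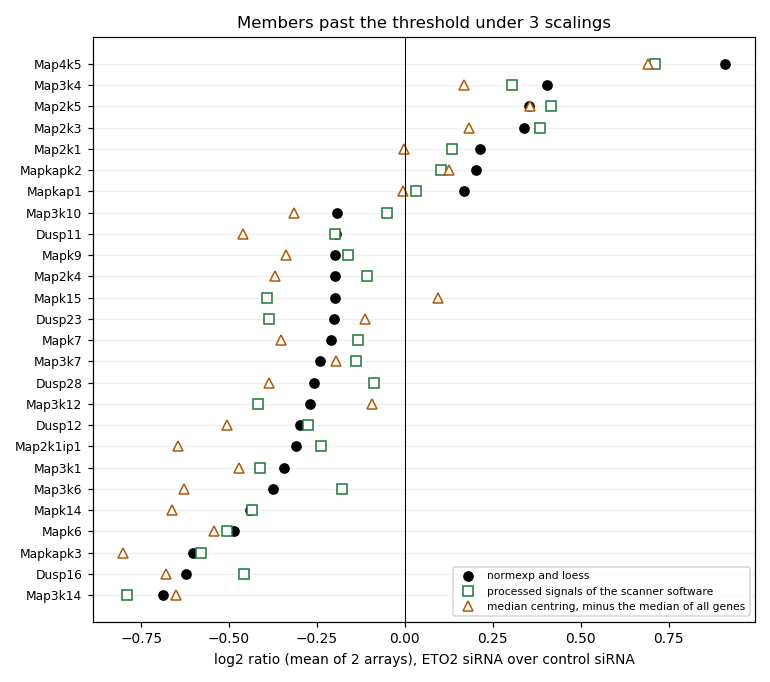
Log2 ratio of ETO2 siRNA over control siRNA (mean of 2 arrays) of the 26 genes past the threshold, with filled circles for normexp and loess, open squares for the scanner software's processed signals, and open triangles for median centring minus the median of all genes (-0.31). For Map4k5 the 3 values are 0.91, 0.71 and 0.69. Map2k1 and Mapkap1 lie at about 0 by median centring, and Mapk15 changes side there.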

How the data were processed

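The deposited mean spot and background intensity values were read by Agilent Feature Extraction 9.1.3.1, per the file headers, and were not normalized. Its processed intensity, background-subtracted and dye-normalized, and its log10 ratio (red over green) are also used, per the file headers. Ratios in the authors' deposited table were within 0.00412 of that log10 ratio. Here signals were corrected by normexp (offset 50), normalized by loess and tested with limma 3.58.1 (R 4.3.3) over all 16588 genes, on both sides, with Benjamini-Hochberg adjustment. Control spots (1639) and flagged outlier spots (10 and 4) were left out. Every log2 ratio is ETO2 siRNA over control siRNA. Channel signals were scaled between arrays (Aquantile) and keep the offset, which draws dim ratios toward 0. The 2 arrays leave 1 residual degree of freedom, with 13.7 prior degrees of freedom from the variance model, and a sign permutation cannot give a two-sided p below 0.5. The labels do not say whether the arrays come from separate cultures, so p-values may measure technical spread only. Members and lists were chosen with earlier results of these data known. The rule for named genes covered every measured Mapk, Map2k and Dusp gene, the called members of the other roles, the 10 largest rises and falls with both channels, and up to 3 pathway genes in each direction. Members that did not pass are named beyond it for completeness. Of the members, 1 is counted throughout but its own values are not reported here. Steps were tested on simulated arrays.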

Additional observations from a re-analysis of the deposited data

How the results depend on the processing

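Counts of called members were within 1.5 times of 7 higher and 19 lower with offset 0, no filter, a stricter filter, averaged probes, saturated probes left out and an intensity trend. On the processed signals 2 members were higher and 11 lower, with 3 and 9 of the pathway list, and the member median moved to -0.0834. On the deposited ratios these were 2 and 11, 3 and 8, and -0.0834. Median centring gave 1 and 40, 1 and 47, and -0.40. It left 4.12% of all calls higher against 45.2%, with the median of all genes at -0.31. With every probe tested on its own, 15 of 96 member probes were higher and 24 lower, and 15 of 104 pathway probes were higher and 31 lower, against 4580 and 5048 of all 24434 probes. On 1 array alone, where there is no test, the member median ranged from -0.07 to 0.01. Under median centring the ratio turned to -0.13 for Map2k3, -0.31 for Map2k1, -0.20 for Map2k7, -0.47 for Map2k2, -0.27 for Mapk8, -0.41 for Mapk3, -0.14 for Map3k4, -0.18 for Mapkapk2 and -0.31 for Mapkap1. With averaged probes Map3k10 turned to 0.0857. The causes of these shifts were not tested. Each log2 ratio is a difference within an array, so the test is already paired by array and no further replicate block was fitted. Signal near background kept 17 members from being measured, and 2 arrays limit the precision of all.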
